A study of Mus musculus with 5 samples.

Results

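Of 5 RNA-seq libraries of sorted splenic germinal center B cells from mice, 2 carried more transcripts of other blood cells than the other 3. They were chosen by a measured value, that of the T cell gene Cd3e in the deposited table: WT2 and DKO1 had more than 100 normalized counts of Cd3e, and WT1, WT3 and DKO2 had fewer. A normalized count is the number of reads of a gene divided by a scaling factor of its library. The library just inside the threshold was DKO1, at 163, and the one just outside was DKO2, at 26.4. Because the values themselves chose the libraries, differences between both sides are described here without a test, and the only tests are those of genotype, which the labels give.

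The study asked which transcripts of germinal center B cells depend on RELB and NF-κB2. WT libraries (n = 3) came from mice that carry Cγ1-Cre alone, and DKO libraries (n = 2) from mice with both floxed genes, relb fl/fl and nfkb2 fl/fl, together with Cγ1-Cre. All mice were littermates, 12 weeks old and immunized with sheep red blood cells (SRBC), and spleens were taken on day 7. The series title describes the sorted cells as eGFP+, without saying what drives the eGFP. Both groups carry the Cre, which is driven by the Cγ1 (IgG1) locus and so acts in activated B cells, and other cell types are not its target. The labels do not say whether each library came from 1 mouse or from pooled mice, so p-values measure only the spread between these libraries.

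A germinal center is a structure in the spleen or lymph node in which activated B cells divide, mutate their antibody genes and compete for help from T cells. Naive B cells, in contrast, rest and recirculate through the blood, guided by the chemokine receptor CCR7 and the sphingosine phosphate receptor S1PR1. T cells are marked by the CD3 complex of the antigen receptor, natural killer (NK) cells by lectin-like receptors and cytotoxic granule proteins, and neutrophils by antimicrobial granule proteins.

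WT2 and DKO1 were also the libraries with the fewest reads in all, 34.0 M and 35.2 M against 44.9 M to 57.6 M, and with the smallest share of mitochondrial ribosomal RNA, 51.6% and 47.0% against 60.6% to 70.9%. Outside the mitochondrial genome all 5 libraries held 15.4 to 17.7 M reads and 17843 to 18744 genes with a read. Pan B cell genes were high everywhere. Ms4a1, which encodes CD20, was at 24245 in WT2 and 25672 in DKO1, against 29489.7 in WT1, 35286 in WT3 and 26911 in DKO2. Of the 13 pan B genes measured, 1 lay above and 1 below in both libraries. Over all genes with a mean of at least 10 normalized counts, these shares were 15.3% and 15.9%. Germinal center markers were high too, with Gcsam, a signaling adaptor of these cells, at 4794 in WT2 and 4375 in DKO1, against 5774 in WT1, 5633 in WT3 and 5514 in DKO2, so the labelled cell type was present in every library.

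Across the 13242 genes with a mean of at least 10 normalized counts, 2025 (15.3%) were higher in both WT2 and DKO1 than in each of the other 3 libraries, and 2112 (15.9%) were lower in both. A gap of at least 2-fold between the nearest libraries separated 233 higher genes (1.76%) but only 31 lower ones (0.234%). The higher genes with such a gap were weakly expressed, with a median of 33.6 normalized counts over the 5 libraries, whereas the median of all tested genes was 256. The lower genes with such a gap were rarer still, at a median of 18.0. Among all genes without overlap the median was 126 for the higher and 712 for the lower ones, so transcripts separated by a 2-fold gap were weak in both directions, and of those without overlap the higher ones were the rarer. In bulk RNA, fewer cells of a type and less RNA per cell cannot be told apart.

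The same split can be read within each genotype, in pairs that share no library. WT2 lay at least 2-fold above both other WT libraries in 930 genes (7.02%) and below both in 484 (3.66%). DKO1 lay at least 2-fold above DKO2 in 1177 genes (8.89%) and below it in 518 (3.91%). Of these, 374 were higher in both genotypes, which is 40.2% of the WT list and 31.8% of the DKO list, and 54 of the 930 (5.81%) were higher within WT and lower within DKO. The lower lists shared 65 genes, 13.4% of the WT list and 12.5% of the DKO list, while 71 genes lower in WT2 (14.7%) were higher in DKO1. Over all 13242 genes the differences within WT and within DKO had a Pearson r of 0.28 and a Spearman rho of 0.33, given as a description, since genes are not independent replicates. DKO1 and WT1 carried transcripts of Y-linked genes and the other 3 had few or none, Ddx3y being at 0 in WT2 and 1778 in DKO1, against 1762 in WT1, 0 in WT3 and 0 in DKO2. Sex and the Cd3e split therefore cannot be told apart within DKO, while WT2 and WT3 were alike in these transcripts and differed in Cd3e.

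**Figure D1:**
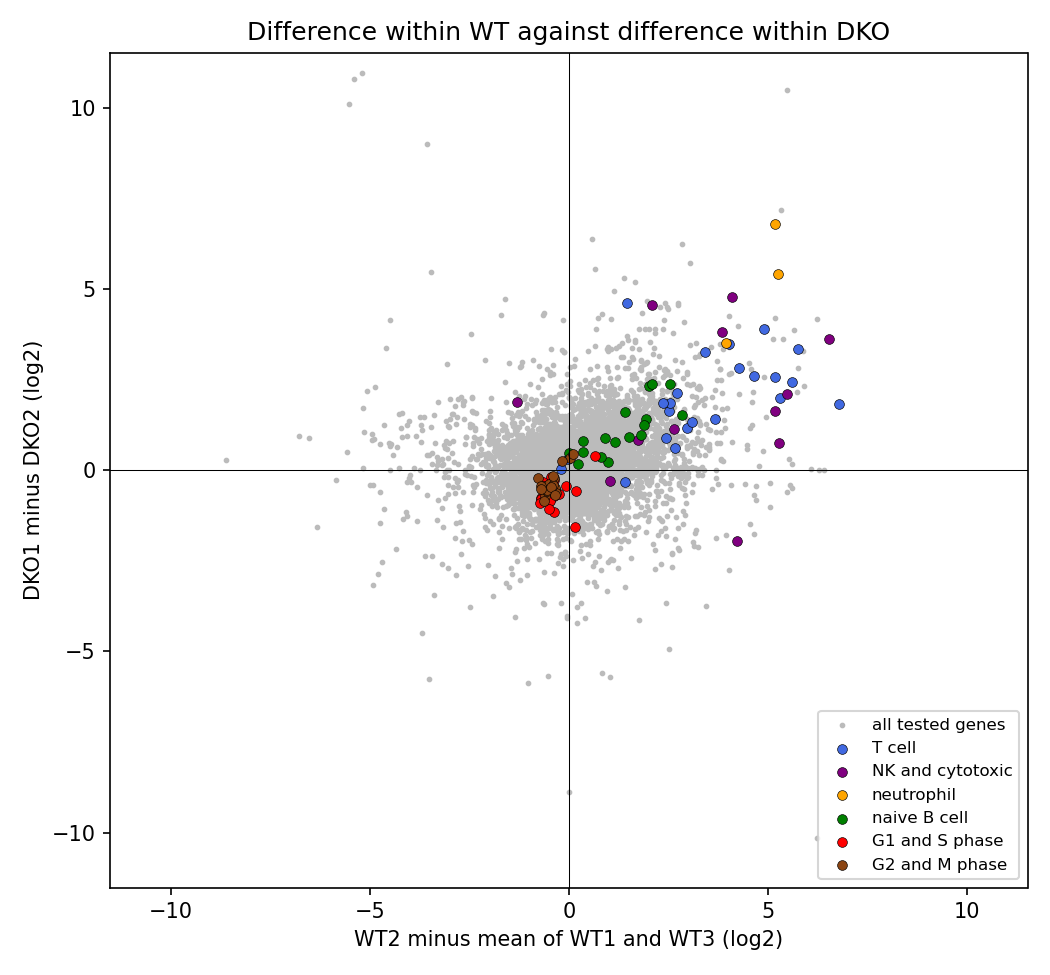
Each point is 1 of 13242 genes; the x axis is WT2 minus the mean of WT1 and WT3 and the y axis is DKO1 minus DKO2, both on the log2(value + 1) scale. Coloured points are tested members of 6 gene lists: T cell, NK, neutrophil and naive B cell genes lie mostly in the upper right, and cell cycle genes sit just below and left of the origin; members under the minimum mean, among them 7 of 10 neutrophil genes, are not drawn.

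T cell transcripts were higher in both WT2 and DKO1. Cd3e itself was at 363 in WT2 and 163 in DKO1, against 10.7 in WT1, 7.69 in WT3 and 26.4 in DKO2. Thy1, a surface glycoprotein of T cells, was at 253 and 103 in WT2 and DKO1 and at 2.14, 7.69 and 18.2 in WT1, WT3 and DKO2. Il7r, the receptor for the survival cytokine IL-7, was at 94.9 and 99.0 in WT2 and DKO1 and at 7.49, 1.92 and 13.2 in WT1, WT3 and DKO2. WT2 held more Cd3e and Thy1 than DKO1, while Il7r was close to equal in the pair, and no library of the other 3 reached either of them. The list of T cell receptor and T lineage genes has 30 members, 1 of which is Cd3e, whose value chose the libraries. Of the other 29, 23 were higher in both libraries without overlap, against 12.5% of the 23359 genes with a read. Their median difference was 2.47 (log2), where that of all genes with a read was 0.05. Medians of lists are given here over all members with a read, because a gene that is low in 3 libraries reaches the minimum mean only where the other 2 are high.

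The promoter of Il7r is shown because it was among the T cell genes with matching values in WT2 and DKO1 and holds a match to the core RUNX motif, TGTGGT, in capitals. Runx factors act in both T and NK cells. The window runs from 250 bases before to 50 after the transcription start, is read 5′ to 3′ on the minus strand of chr15:9529827-9530126 (RefSeq, GRCm38.p6), and the match begins 3 bases after the start.
Il7r: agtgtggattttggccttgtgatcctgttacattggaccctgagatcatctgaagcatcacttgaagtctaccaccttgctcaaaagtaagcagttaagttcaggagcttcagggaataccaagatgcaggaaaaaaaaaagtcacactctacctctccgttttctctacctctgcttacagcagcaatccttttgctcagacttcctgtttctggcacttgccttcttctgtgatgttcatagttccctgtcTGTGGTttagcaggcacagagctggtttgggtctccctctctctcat
On either strand, TGTGGT was found in 6 of 25 promoters (24.0%) of the 19 T lineage genes that matched the RefSeq table, and in 5506 of all 32851 promoters (16.8%). A match describes the letters and does not show that a factor bound there.

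Signaling and transcription factor genes of T cells followed the same split. Bcl11b, a factor that maintains T cell identity, was at 67.1 in WT2 and 55.2 in DKO1, against 6.42 in WT1, 0 in WT3 and 8.26 in DKO2. Themis, which acts in T cell receptor signaling, was at 49.5 and 38.5 in WT2 and DKO1 and at 0, 1.92 and 1.65 in WT1, WT3 and DKO2. Prkcq, the kinase PKCθ, was at 122 and 69.2 in WT2 and DKO1 and at 8.56, 0 and 16.5 in WT1, WT3 and DKO2. All 3 were near the level of a few reads in WT3 and clearly detected in WT2 and DKO1. Tcf7, encoding TCF1, was at 244 in WT2 and 104 in DKO1, against 56.7 in WT1, 13.5 in WT3 and 40.5 in DKO2, and the costimulatory receptor gene Cd28 was at 118 and 118 in WT2 and DKO1 and at 23.6, 12.5 and 26.4 in WT1, WT3 and DKO2. For Cd28 both libraries had almost the same level, above each of the rest.

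Some genes named for T cells did not move with the split. Cd2, an adhesion receptor, was at 1391 in WT2 and 1519 in DKO1, against 1342 in WT1, 1468 in WT3 and 1229 in DKO2. Lck, the Src family kinase of T cell receptor signaling, was at 789 in WT2 and 450.1 in DKO1, against 1027 in WT1, 814 in WT3 and 438 in DKO2. The values of Cd2 spanned a narrow range in all 5 libraries, and those of Lck separated WT from DKO and not the libraries by Cd3e. WT1 had the highest Lck value, beside one of the lowest of Cd3e. Cd5, Skap1, Zap70 and Ubash3a also overlapped between the sides. In each of these 4 genes WT2 was the highest library, and DKO1 was not above the rest.

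The 2 libraries differed in their T cell coreceptor genes. Cd8b1, the beta chain of the CD8 coreceptor of cytotoxic T cells, was at 253 in WT2 and 20.1 in DKO1, against 4.28 in WT1, 0 in WT3 and 4.96 in DKO2. Cd8a, the alpha chain, was at 131 and 19.3 in WT2 and DKO1 and at 12.8, 6.73 and 6.61 in WT1, WT3 and DKO2. Cd4, the coreceptor of helper T cells, was at 33.0 and 42.0 in WT2 and DKO1 and at 2.14, 11.5 and 22.3 in WT1, WT3 and DKO2. WT2 thus had many more CD8 than CD4 counts, whereas in DKO1 Cd4 was above both CD8 genes; DKO2 had a Cd4 level not far below theirs. T cell receptor V, D and J segments gave 153 reads over 44 of 220 segment genes in WT2 and 78 reads over 36 in DKO1. In WT1, WT3 and DKO2 there were 14, 1 and 13 such reads, over 10, 1 and 12 segment genes. The receptor constant genes gave 209 and 132 reads in WT2 and DKO1 and 10, 2 and 20 in the others. The reads of WT2 and DKO1 were thus spread over many different segments, with the most used segment at 10.5% and 10.3% of them.

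Markers of follicular helper T cells, which live inside germinal centers, were less clearly split. Of 10 members 3 were higher in both libraries without overlap, beside 12.5% of all genes with a read: Cd40lg, Icos and Tnfsf8. Cd40lg, the ligand through which these cells help B cells, was at 38.2 in WT2 and 28.0 in DKO1, against 3.21 in WT1, 17.3 in WT3 and 16.5 in DKO2. Pdcd1 was listed at 0 in WT2, and Il21 and Il4 had at most 2 reads in any library. The chemokine receptor gene Cxcr5, also expressed by B cells, was at 2935 and 2766 in WT2 and DKO1 and at 2523, 3455 and 1986 in WT1, WT3 and DKO2, with WT3 the highest. Of 8 regulatory T cell genes, 3 were higher without overlap, and the lineage factor Foxp3 was not among them. Foxp3 was at 5.16 in WT2 and 19.3 in DKO1, against 6.42 in WT1, 5.77 in WT3 and 9.09 in DKO2. Il2ra and Ctla4 ran the other way within DKO, at 36.8 and 29.8 in DKO1 and at 78.5 and 68.6 in DKO2.

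**Figure D2:**
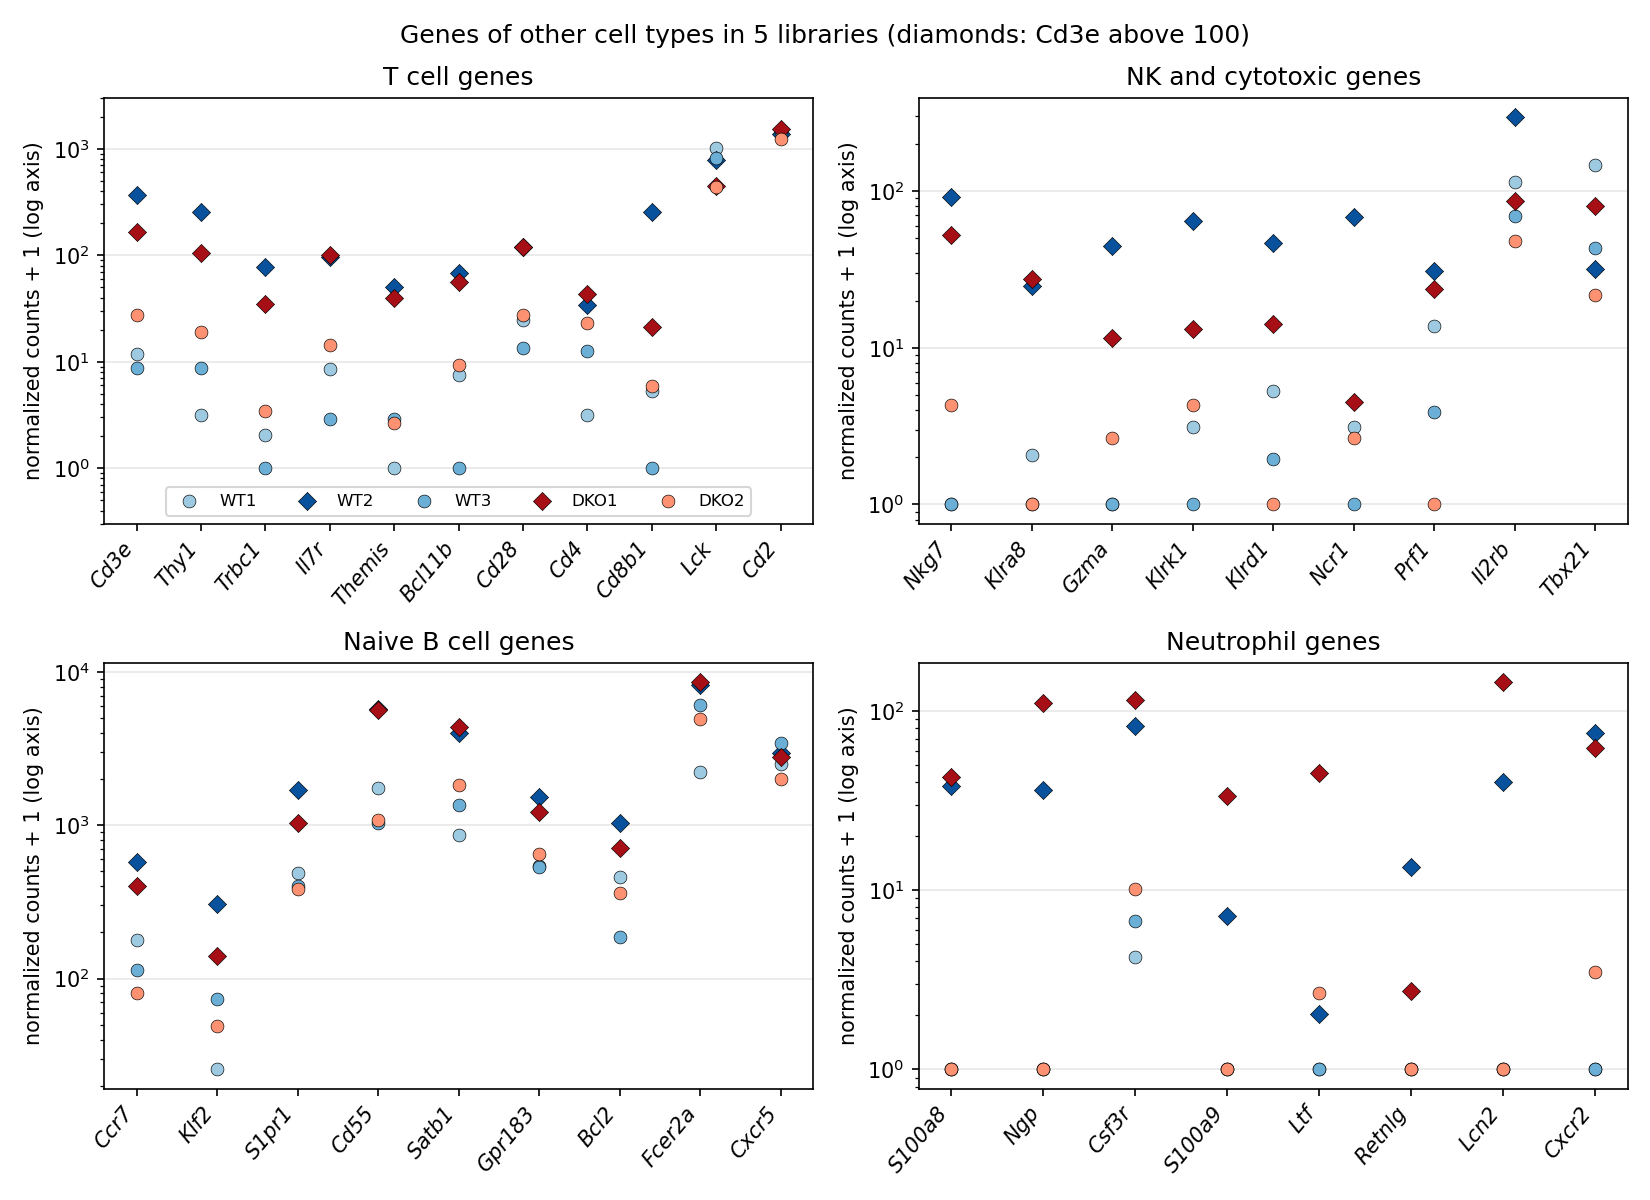
Normalized counts plus 1 (log axis) of chosen T cell, NK, naive B cell and neutrophil genes in the 5 libraries; each symbol is 1 library, and diamonds are WT2 and DKO1. The diamonds lie above the circles for most genes, except Lck, Cd2, Il2rb, Tbx21, Cxcr5 and Ltf, and in Ncr1 and Cd8b1 they lie far apart from each other.

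NK and cytotoxic genes were higher too, but unevenly between both libraries. Nkg7, a granule protein of NK and cytotoxic T cells, was at 90.8 in WT2 and 51.7 in DKO1, against 0 in WT1, 0 in WT3 and 3.30 in DKO2. Klrd1, the CD94 receptor chain, was at 45.4 and 13.1 in WT2 and DKO1 and at 4.28, 0.961 and 0 in WT1, WT3 and DKO2. The inhibitory or activating receptor family member Klra8 was at 23.7 and 26.3 in WT2 and DKO1 and at 1.07, 0 and 0 in WT1, WT3 and DKO2. In these 3 genes both libraries lay above the rest. Reads of Nkg7 numbered 147 in WT2 and DKO1 together and 4 in the others, which is a 55.5-fold ratio after scaling for library size. Nkg7 was named by its gap between these same libraries and by its mean over all libraries, so this ratio is descriptive only.

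Ncr1, the NKp46 receptor that defines NK cells, was at 67.1 in WT2 and 3.50 in DKO1, against 2.14 in WT1, 0 in WT3 and 1.65 in DKO2. It stood out in WT2 only, and DKO1 was within a few reads of WT1. Gzma, a granule protease, was at 43.3 and 10.5 in WT2 and DKO1 and at 0, 0 and 1.65 in WT1, WT3 and DKO2, and Klrk1, the NKG2D receptor, at 62.9 and 12.3 in WT2 and DKO1 and at 2.14, 0 and 3.30 in WT1, WT3 and DKO2. Fasl was listed at 0 in every library but WT2, where it was at 42.3. Of all 20 members 9 were higher in both libraries without overlap, beside 12.5% of all genes with a read, and the median difference was 2.43 (log2), 3.43 within WT and 1.74 within DKO. In the mean of WT1, WT3 and DKO2 alone 3 of the 20 would have reached 10 normalized counts. Tbx21 and Il2rb, which other lymphocytes also express, overlapped. Tbx21 was at 31.0 and 78.8 in WT2 and DKO1 and at 145, 42.3 and 20.6 in WT1, WT3 and DKO2. Klrb1c, Ccl5 and Cd160 overlapped too, and Cd160 was highest in DKO2. Klrb1c was at 53.7 and 3.50 in WT2 and DKO1 and at 7.49, 0 and 16.5 in WT1, WT3 and DKO2. It was thus lower in DKO1 than in WT1 and DKO2. Summed over the list, WT2 had 1025 and DKO1 463 normalized counts, and the other libraries had 152 to 393.

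The promoter of Nkg7 is printed as that of an NK gene high in both libraries. Capitals mark the RUNX match, here ACCACA, which is TGTGGT on the other strand; it begins 83 bases before the start, and the window is the plus strand of chr7:43436888-43437187 (RefSeq, GRCm38.p6).
Nkg7: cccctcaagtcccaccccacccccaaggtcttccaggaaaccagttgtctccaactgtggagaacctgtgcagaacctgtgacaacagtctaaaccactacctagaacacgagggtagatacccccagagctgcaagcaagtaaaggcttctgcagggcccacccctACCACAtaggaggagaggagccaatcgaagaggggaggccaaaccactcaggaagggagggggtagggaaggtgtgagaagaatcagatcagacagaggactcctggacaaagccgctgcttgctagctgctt
Of 18 promoters of the 14 NK and cytotoxic genes found in the RefSeq table, 12 (66.7%) held this motif, beside 16.8% of all promoters. Several of these genes are relatives within the lectin-like receptor families, so their promoters are not independent of each other.

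Naive B cell genes were higher as well, and many of them were abundant transcripts. Cd55, a regulator of complement, was at 5714 in WT2 and 5628 in DKO1, against 1748 in WT1, 1039 in WT3 and 1077 in DKO2. Ccr7 was at 575 in WT2 and 401 in DKO1, against 178 in WT1, 112 in WT3 and 79.3 in DKO2. In both genes WT2 and DKO1 were at least 2-fold above the highest of the other libraries. Of the 17 members measured, 14 were higher in both without overlap, beside 15.3% of all tested genes. The median difference of these 17 was 1.25 (log2), 1.41 within WT and 0.91 within DKO. Summed over the list, WT2 had 66587 and DKO1 65063 normalized counts, nearly the same level, while the others had 33299 to 40190.

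S1pr1, which lets lymphocytes leave tissue for the blood, was at 1696 in WT2 and 1032 in DKO1, against 489 in WT1, 403 in WT3 and 384 in DKO2. Its transcriptional regulator Klf2 was at 306 and 140.1 in WT2 and DKO1 and at 24.6, 72.1 and 47.9 in WT1, WT3 and DKO2. Satb1, a chromatin organizer of lymphocytes, was at 4014 and 4381 in WT2 and DKO1 and at 864, 1362 and 1833 in WT1, WT3 and DKO2. The survival gene Bcl2, which germinal center B cells keep low, was at 1027 and 714 in WT2 and DKO1 and at 460.3, 185 and 360.1 in WT1, WT3 and DKO2. T cells express all 4 of these genes as well, so the list is not specific to naive B cells. Fcer2a, the low affinity IgE receptor CD23 of mature B cells, was at 8249 in WT2 and 8562 in DKO1, against 2235 in WT1, 6095 in WT3 and 4952 in DKO2. Here WT3 came closest to WT2, and WT1 was the lowest library. Faim3, Cxcr5 and Tlr9 overlapped between both sides. Of 8 marginal zone and B1 B cell genes 1 was higher in both, Cd1d1, and 0 were lower, beside 15.3% and 15.9% of all tested genes.

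Neutrophil transcripts led the list of higher genes, although the sides had been named for lymphocytes. Lcn2, an iron-binding granule protein, was at 39.2 in WT2 and 144 in DKO1, against 0 in WT1, 0 in WT3 and 0 in DKO2. Ngp, a granule protein of immature neutrophils, was at 35.1 and 109 in WT2 and DKO1 and at 0, 0 and 0 in WT1, WT3 and DKO2, and S100a8, a subunit of calprotectin, at 37.1 and 42.0 in WT2 and DKO1 and at 0, 0 and 0 in WT1, WT3 and DKO2. None of the other 3 libraries had a single read of these genes. With a floor of 3 reads over those libraries, Lcn2 was at least 102-fold higher in WT2 and DKO1, Ngp at least 80.0-fold and S100a8 at least 42.2-fold. Cxcr2, the chemokine receptor of neutrophils, was at 74.3 and 61.3 in WT2 and DKO1 and at 0, 0 and 2.48 in WT1, WT3 and DKO2, and Csf3r, the receptor for G-CSF, at 81.5 and 115 in WT2 and DKO1 and at 3.21, 5.77 and 9.09 in WT1, WT3 and DKO2. Of the 10 genes of the neutrophil list 7 were higher in both without overlap, beside 12.5% of all genes with a read. The median difference over all 10 was 2.69 (log2). Only 3 reached the minimum mean, and 0 would have done so in the other 3 libraries alone.

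DKO1 held more neutrophil transcripts than WT2, the reverse of the order for NK genes. Their summed level was 200.2 in WT2, 352 in DKO1 and 6.73 to 13.2 in the others. Ltf, lactoferrin, was at 1.03 in WT2 and 43.8 in DKO1, against 0 in WT1, 0 in WT3 and 1.65 in DKO2, so DKO1 alone stood out. Genes of platelets had the same split, with 6 of 7 higher in both without overlap, beside 12.5% of all genes with a read. Gp1ba encodes a subunit of the von Willebrand factor receptor. It was at 99.1 and 71.8 in WT2 and DKO1 and at 12.8, 16.3 and 26.4 in WT1, WT3 and DKO2. Other genes among the 15 with the largest gap were Peli2, Kit, Il18rap, Rnd3, Trbc1, Chi3l3 and Gbp10. Kit, a receptor of mast cells and progenitors, was at 43.3 in WT2 and 40.3 in DKO1, against 1.07 in WT1, 0 in WT3 and 1.65 in DKO2, and Il18rap, a subunit of the IL-18 receptor, at 49.5 and 37.7 in WT2 and DKO1 and at 0, 0 and 1.65 in WT1, WT3 and DKO2. Chi3l3, a chitinase-like protein of myeloid cells, was at 27.9 and 49.9 in WT2 and DKO1 and at 2.14, 0 and 1.65 in WT1, WT3 and DKO2, and Gbp10, an interferon-induced GTPase, at 7.22 and 51.7 in WT2 and DKO1 and at 0, 0 and 0 in WT1, WT3 and DKO2. WT2 and DKO1 were close to each other in Kit and Il18rap, and far apart in Gbp10.

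Transcripts of macrophages had no common pattern over the libraries. Vcam1, which red pulp macrophages express, was at 20.6 in WT2 and 314 in DKO1, against 610.2 in WT1, 39.4 in WT3 and 483 in DKO2. Mertk, a receptor for dying cells, was at 0 and 42.0 in WT2 and DKO1 and at 92.1, 5.77 and 90.0 in WT1, WT3 and DKO2, and C1qb, a subunit of complement C1q, at 2.06 and 82.3 in WT2 and DKO1 and at 135, 3.84 and 54.5 in WT1, WT3 and DKO2. In these 3 genes WT1, DKO1 and DKO2 were high and WT2 and WT3 low. Other abundant members ran otherwise: Lyz2, lysozyme, was at 423 and 620.0 in WT2 and DKO1 and at 509.6, 44.2 and 86.7 in WT1, WT3 and DKO2, so WT1 lay between WT2 and DKO1. Cd68, a lysosomal protein of macrophages, was at 208 and 194 in WT2 and DKO1 and at 237, 168 and 207 in WT1, WT3 and DKO2, nearly level. Of the 18 genes of macrophages and monocytes 3 were higher in both WT2 and DKO1 and 1 was lower, beside 12.5% and 10.9% of all genes with a read. Itgam, shared with neutrophils and NK cells, was one of the higher ones, at 272 and 198 in WT2 and DKO1 and at 193, 26.9 and 53.7 in WT1, WT3 and DKO2. Dendritic cell genes had 3 of 8 higher: Itgax, Clec9a and Siglech. Itgax, the integrin CD11c, was at 117 and 75.3 in WT2 and DKO1 and at 38.5, 7.69 and 8.26 in WT1, WT3 and DKO2, so both libraries stood above the rest. Clec9a, a receptor of cross-presenting dendritic cells, was at 69.1 and 14.0 in WT2 and DKO1 and at 8.56, 1.92 and 1.65 in WT1, WT3 and DKO2, and Siglech, of plasmacytoid dendritic cells, was at 66.0 in WT2 with at most 1 read elsewhere. Xcr1, also of cross-presenting cells, overlapped, at 97.0 and 10.5 in WT2 and DKO1 and at 0, 3.84 and 16.5 in WT1, WT3 and DKO2, with WT2 alone high. The hemoglobin gene Hbb-bs was highest in DKO1, at 23.7 in WT2 and 97.2 in DKO1, against 11.8 in WT1, 3.84 in WT3 and 7.43 in DKO2. The part of each cell type in the other differences was not tested.

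**Figure D3:**
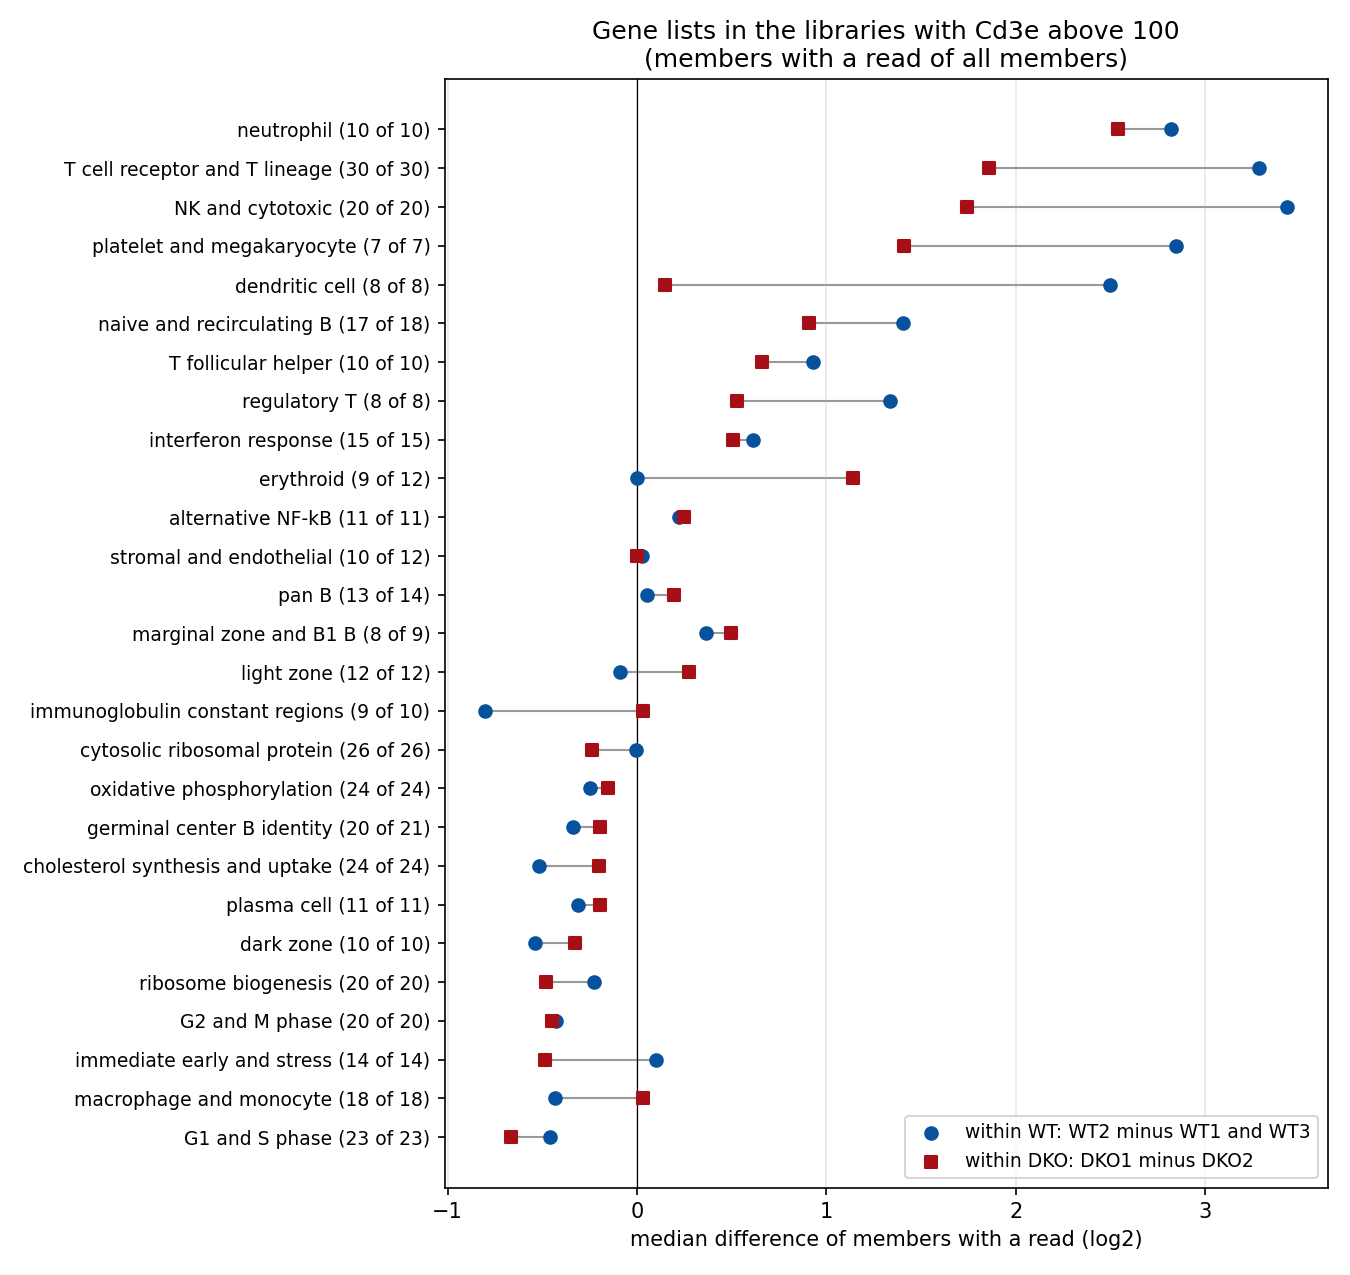
Median log2 difference of the members of each list that had a read, within WT (circles, WT2 minus WT1 and WT3) and within DKO (squares, DKO1 minus DKO2), with members with a read and all members in brackets. Neutrophil, T cell, NK, platelet and naive B cell lists lie to the right in both genotypes and cell cycle lists to the left, while the 2 symbols lie far apart for the dendritic cell list.

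Genes of cell division were lower in both libraries. Their lists had the largest shares of lower members, apart from mitochondrial ribosomal RNA with 2 of 2. Rrm2, the ribonucleotide reductase subunit that supplies DNA precursors, was at 3669 in WT2 and 3296 in DKO1, against 5827 in WT1, 6307 in WT3 and 6158 in DKO2. Mcm6, a subunit of the replicative helicase, was at 5122 in WT2 and 3674 in DKO1, against 6444 in WT1, 8023 in WT3 and 6535 in DKO2. Top2a, the topoisomerase that untangles chromosomes, was at 23978 in WT2 and 23281 in DKO1, against 37157 in WT1, 36041 in WT3 and 37915 in DKO2. In each of these genes WT2 and DKO1 lay below the lowest of the others. Of 23 genes of G1 and S phase 19 were lower in both without overlap and 1 was higher, Ccne1, with a median difference of −0.55 (log2). All 23 were tested; 15.9% of all tested genes were lower in this way. The median was −0.46 within WT and −0.67 within DKO.

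Mcm6 is shown as a replication gene that was lower in both libraries and whose promoter holds a pair of matches to the E2F motif, the site of the factors that drive S phase genes. The motif was searched as TTTGGCGC or TTTCCCGC on either strand; capitals mark the matches, which begin 110 and 47 bases before the start on the minus strand of chr1:128359656-128359955 (RefSeq, GRCm38.p6).
Mcm6: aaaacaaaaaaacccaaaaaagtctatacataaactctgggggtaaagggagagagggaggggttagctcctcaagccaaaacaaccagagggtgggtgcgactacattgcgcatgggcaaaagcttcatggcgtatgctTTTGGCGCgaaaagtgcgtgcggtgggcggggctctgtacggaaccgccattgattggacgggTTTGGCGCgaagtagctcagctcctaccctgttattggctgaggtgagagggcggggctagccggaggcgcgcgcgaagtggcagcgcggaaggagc
This motif was found in 6 of 21 promoters (28.6%) of the 18 G1 and S phase genes that matched, in none of 16 promoters of 16 G2 and M phase genes, and in 514 of all 32851 promoters (1.56%).

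In G2 and M phase 17 of 20 genes were lower, beside 15.9% of all tested genes. The median difference of the 20 was −0.47 (log2), −0.43 within WT and −0.45 within DKO. Ccna2, cyclin A2, was at 4191 in WT2 and 3981 in DKO1, against 5908 in WT1, 7031 in WT3 and 7219 in DKO2. Aurkb, a kinase of chromosome segregation, was at 2019 and 2404 in WT2 and DKO1 and at 2771, 3542 and 3250.2 in WT1, WT3 and DKO2, and Kif11, a spindle motor, at 7667 and 7528 in WT2 and DKO1 and at 10209, 9485 and 10638 in WT1, WT3 and DKO2. These 3 genes were lower by less than 2-fold, and the values of both sides did not overlap. The exceptions were Mki67, Cenpe and Cenpf, each far higher in WT1 than in any other library: Mki67 was at 69174 in WT2 and 68565 in DKO1, against 120604 in WT1, 38036 in WT3 and 54064 in DKO2.

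Genes of germinal center identity were lower by smaller amounts: 10 of 21 were lower in both libraries and 0 higher. Of all tested genes, 15.9% were lower and 15.3% higher in this way. The median difference of the list was −0.33 (log2) over the 20 with a read. S1pr2, the receptor that holds B cells inside the germinal center, was at 1448 in WT2 and 1528 in DKO1, against 2059.8 in WT1, 2804 in WT3 and 2186 in DKO2. Basp1, a membrane protein of these cells, was at 1787 and 2051 in WT2 and DKO1 and at 4370.0, 3653 and 2415 in WT1, WT3 and DKO2, and Nuggc, a nuclear GTPase named for the germinal center, at 4049.8 and 4873 in WT2 and DKO1 and at 6675, 7403 and 5409 in WT1, WT3 and DKO2. In these 3 genes WT2 and DKO1 lay below every other library. Bcl6, the repressor that defines the germinal center program, was at 9681 in WT2 and 10263 in DKO1, against 11338 in WT1, 11763 in WT3 and 9887 in DKO2, and DKO2 lay between WT2 and DKO1. It was added after its values were seen. Bach2, a repressor of plasma cell fate, was at 16775 and 25304 in WT2 and DKO1 and at 16566, 11155 and 24445 in WT1, WT3 and DKO2, which separated DKO from WT and not the libraries by Cd3e.

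Of 10 dark zone genes, which mark the dividing compartment, 5 were lower in both and 0 higher, with a median difference of −0.40 (log2). Of all genes with a read, 10.9% were lower in both and 12.5% higher. Polh, the error-prone polymerase that acts in somatic mutation, was at 3074 in WT2 and 3718 in DKO1, against 5036 in WT1, 5376 in WT3 and 5435 in DKO2, and Hmmr, a spindle protein, at 3224 and 3101 in WT2 and DKO1 and at 4808, 4812 and 5437 in WT1, WT3 and DKO2. Foxo1 and Tcf3, among the most abundant members, overlapped between the sides. Foxo1 was at 7811 and 8574 in WT2 and DKO1 and at 7528, 7193 and 8104 in WT1, WT3 and DKO2. The dark zone list also holds genes of cell division, such as Hmmr, Aurka and Plk1, so it partly repeats the cell cycle lists. Among 12 light zone genes 2 were higher and 1 lower, with a median difference of 0.03. The higher ones were Cd83, an activation marker, at 2713 and 2956 in WT2 and DKO1 and at 1917, 2449 and 2299 in WT1, WT3 and DKO2, and Egr3, at 112 and 171 in WT2 and DKO1 and at 61.0, 73.0 and 69.4 in WT1, WT3 and DKO2. Dark zone and light zone genes thus had different counts, and the difference between these lists was not tested.

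**Figure D4:**
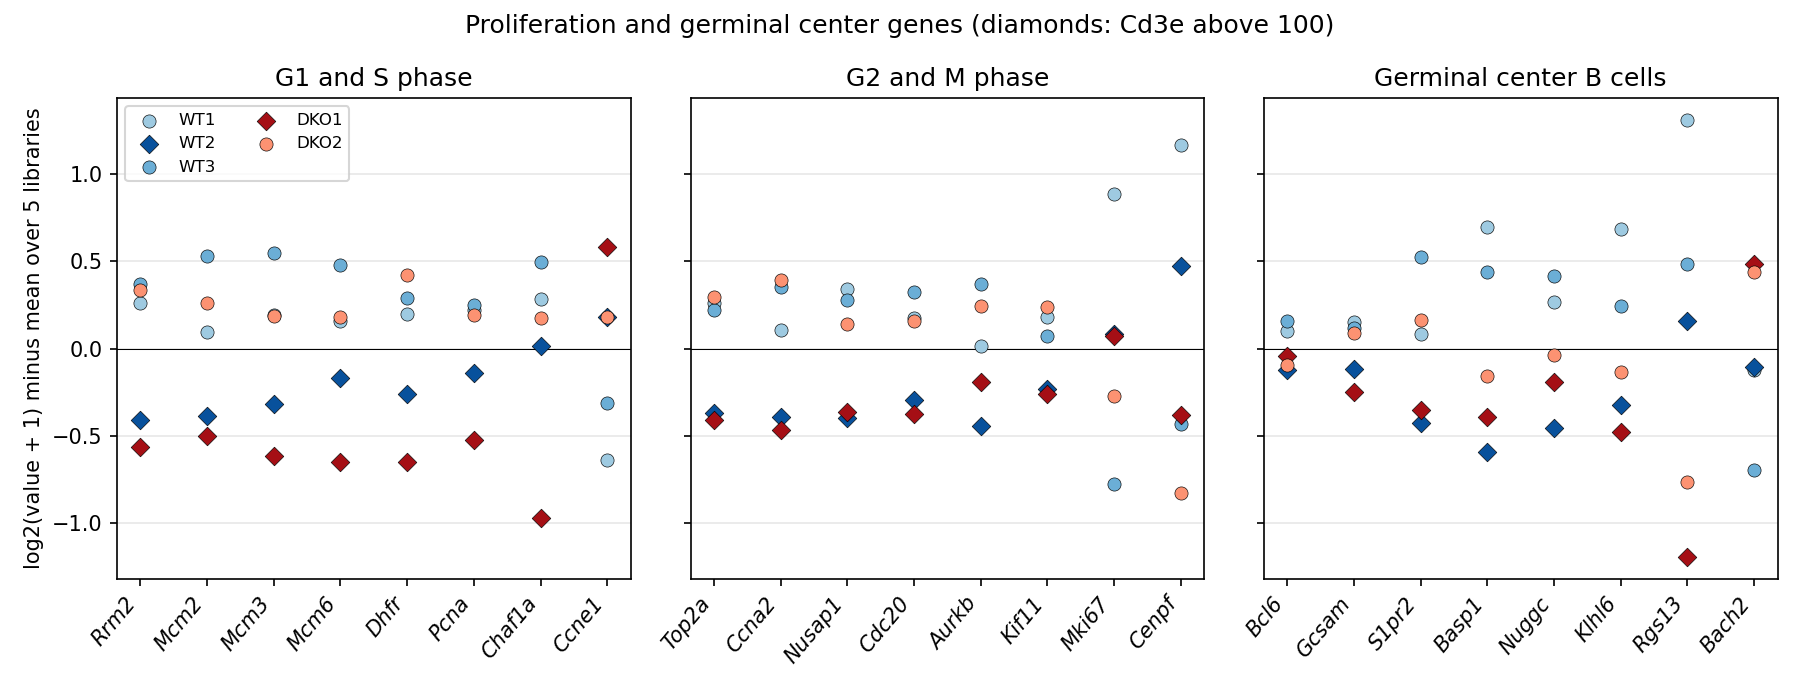
Log2(value + 1) of cell cycle and germinal center genes minus the mean of each gene over the 5 libraries; each symbol is 1 library, and diamonds are WT2 and DKO1. The diamonds lie below the circles in most cell cycle genes, but not in Ccne1, Mki67 and Cenpf, and Rgs13 and Bach2 separate by genotype instead.

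Growth and metabolism genes differed between lists. For ribosome biogenesis, 11 of 20 genes were lower in both libraries, with a median of −0.41 (log2), −0.22 within WT and −0.48 within DKO. Nop56, a nucleolar protein of the box C/D complex, was at 5322 in WT2 and 6684 in DKO1, against 8549.5 in WT1, 9355 in WT3 and 9517 in DKO2. Npm1, nucleophosmin, was at 25312 and 21296 in WT2 and DKO1 and at 37303, 28435 and 25674 in WT1, WT3 and DKO2, and Ncl, nucleolin, at 30852 and 23736 in WT2 and DKO1 and at 41307, 32213 and 35428 in WT1, WT3 and DKO2. For oxidative phosphorylation the count was 11 of 24, at a median of −0.26, and Atp5b of the ATP synthase was at 33718 and 32937 in WT2 and DKO1 and at 43853, 60755 and 45126 in WT1, WT3 and DKO2. For ribosomal protein genes the count was 4 lower and 1 higher of 26, and the lower share is close to the 15.9% of all tested genes. Their median was −0.16, with −0.24 within DKO and −0.01 within WT. These genes have near-identical copies, which leaves single members uncertain.

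Cholesterol genes were examined after the values were seen, since the enzymes of this pathway recurred on the lower side. Of 24 genes of synthesis and uptake 12 were lower in both libraries and 1 was higher, beside 15.9% and 15.3% of all tested genes. The median of the 24 was −0.39 (log2), −0.52 within WT and −0.20 within DKO. Fdps, farnesyl diphosphate synthase, was at 159 in WT2 and 157 in DKO1, against 442 in WT1, 399.8 in WT3 and 331 in DKO2. Cyp51, the lanosterol demethylase, was at 1452 and 957 in WT2 and DKO1 and at 3278, 2082 and 1632 in WT1, WT3 and DKO2. In both genes WT2 and DKO1 lay below each of the other libraries.

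The 15 lower genes with the largest gap included Smyd2, a lysine methyltransferase, which was at 25.8 in WT2 and 31.5 in DKO1, against 111 in WT1, 111 in WT3 and 102 in DKO2. Tert, the catalytic subunit of telomerase, was at 3.10 and 2.63 in WT2 and DKO1 and at 36.4, 28.8 and 22.3 in WT1, WT3 and DKO2. Plod2, a collagen lysyl hydroxylase, was at 0 and 3.50 in WT2 and DKO1 and at 20.3, 30.8 and 24.8 in WT1, WT3 and DKO2, and Maff, a small MAF transcription factor, at 4.13 and 2.63 in WT2 and DKO1 and at 26.8, 30.8 and 21.5 in WT1, WT3 and DKO2. WT2 and DKO1 held few reads of Tert, Plod2 and Maff, and Smyd2 was the most abundant of these 4 genes. Afap1l1 and Gas2l1 had no read in WT2 and DKO1 and were at least 19.0-fold and 18.1-fold lower there, with the floor of 3 reads over the pair. The remaining 9 were Raet1d, Pcbp4, Kdelc1, Rcor2, Amotl1, Morn4, Tm4sf5, Tmem51 and Il1r1.

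Interferon response genes were partly higher, with 5 of 15 above in both libraries, beside 12.5% of all genes with a read. Xaf1 was at 318 in WT2 and 280.2 in DKO1, against 175 in WT1, 106 in WT3 and 118 in DKO2, Zbp1, a sensor of nucleic acids, was at 683 and 612 in WT2 and DKO1 and at 565, 399 and 272 in WT1, WT3 and DKO2, and Mx1, an antiviral GTPase, at 41.3 and 109 in WT2 and DKO1 and at 37.5, 10.6 and 28.1 in WT1, WT3 and DKO2. The median difference was 0.66 (log2), 0.61 within WT and 0.51 within DKO. Oasl2, in contrast, was at 237 and 12.3 in WT2 and DKO1 and at 149.9, 160.5 and 81.8 in WT1, WT3 and DKO2, with DKO1 lowest. Plasma cell genes had 1 higher, Sdc1, and 4 lower of 11, beside 12.5% and 10.9% of all genes with a read. Igj, the joining chain of secreted IgM and IgA, was among the lower ones, at 3289 and 3128 in WT2 and DKO1 and at 5365, 4921 and 4511 in WT1, WT3 and DKO2. Among immunoglobulin constant regions 1 of 9 was higher, and the effective number of heavy chain V genes was 45.6 in WT2 and 46.8 in DKO1 against 39.4, 34.6 and 47.1 in WT1, WT3 and DKO2, so DKO2 was as diverse as both.

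The targeted genes were lower in both DKO libraries, and less so in DKO1. Relb was at 136, 171 and 117 in WT1 to WT3 and 56.9 and 10.7 in DKO1 and DKO2. Nfkb2, which encodes the precursor of the p52 partner of RELB, was at 657, 601 and 445 in WT1 to WT3 and 298 and 73.5 in DKO1 and DKO2. DKO1 kept 40.2% of the WT mean of Relb and 52.5% of that of Nfkb2, and DKO2 kept 7.59% and 13.0%. The DKO library with more transcripts of other cells was thus also the one with more reads of both targeted genes. Which exons the floxed alleles lose, and which cells the remaining reads came from, was not tested. The log2 fold change between genotypes was −2.43 ± 0.63 (SE) for Relb and −1.91 ± 0.51 for Nfkb2, and neither passed over all genes in limma's test (adjusted p = 0.823 for both). Without WT2 and DKO1 the fold changes were −3.44 and −2.86 (adjusted p = 1.0 in limma), and DKO is then a single library.

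In the list of alternative NF-κB pathway genes, which includes the targeted Nfkb2, no member was separated by the split. Small shifts ran upward: the median difference was 0.30 (log2), 0.22 within WT and 0.25 within DKO. Of the 10 tested members, 9 had a higher mean log2 level in WT2 and DKO1 and 1 a lower one. Of 11, 0 were higher and 0 lower in both libraries without overlap, beside 12.5% and 10.9% of all genes with a read. Cd40, a receptor that feeds the pathway, was at 1143 in WT2 and 916 in DKO1, against 1053 in WT1, 909 in WT3 and 487 in DKO2. Map3k14, the kinase NIK, was at 499 and 579 in WT2 and DKO1 and at 359, 540.1 and 426 in WT1, WT3 and DKO2, and Traf3, which keeps NIK low, at 1411 and 1187 in WT2 and DKO1 and at 1245, 898 and 999 in WT1, WT3 and DKO2. DKO2 had the lowest value of Cd40 and WT3 that of Traf3. Between genotypes, none of the 10 tested members passed in limma, and 2 were lower at an unadjusted p under 0.05. The targeted genes themselves had unadjusted p = 0.0040 (Relb) and 0.0045 (Nfkb2) in limma. Nfkb2 was thus among these 2, and the other need not be a further pathway gene.

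Over all 13242 genes limma called 0 genes between genotypes (0.0%), with 803 (6.06%) at an unadjusted p under 0.05, of which 489 were higher and 314 lower in DKO. EdgeR on the recovered reads also called 0, and DESeq2 called 29 (0.219%), 16 higher and 13 lower. With the side of the split as a covariate limma called 1 gene, Gm10800, and with the mean level of T cell genes as a covariate 3, Gm10800, Gm20696 and Gm26789; these were named after their values were seen. Of the 359 tested genes of the 28 lists and the cholesterol list limma and edgeR called 0, while DESeq2 called 4, Lck, Cd36, Rgs13 and Tox2. WT2 and DKO1 belong to different genotypes, so the split runs across both groups.

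**Figure D5:**
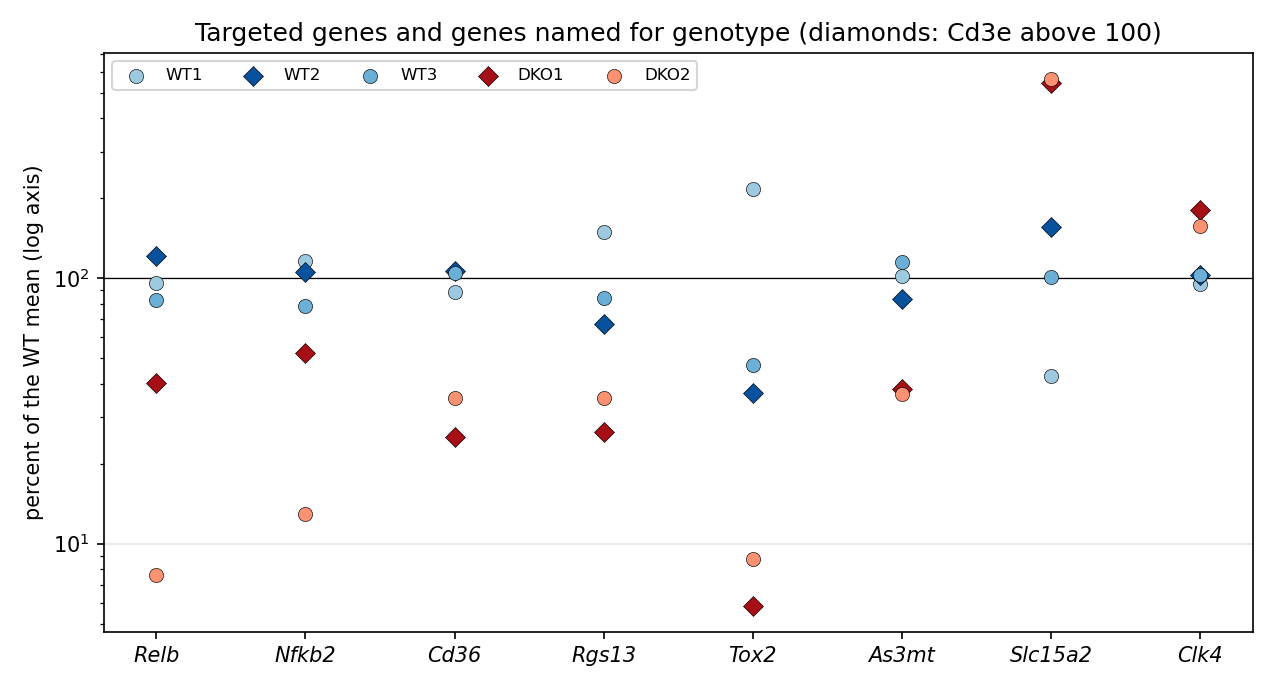
Level of the targeted genes and of 6 genes named for genotype, as a percentage of the WT mean (log axis); each symbol is 1 library, and diamonds are WT2 and DKO1. DKO1 lies above DKO2 in Relb and Nfkb2, while both DKO libraries lie close together in As3mt, Slc15a2 and Clk4.

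The genes with the smallest p between genotypes can be compared within each side of the split, DKO1 with WT2 and DKO2 with WT1 and WT3. Cd36, a fatty acid receptor, was at 763, 917 and 903 in WT1 to WT3 and 218 and 305 in DKO1 and DKO2, so DKO1 had 0.238 times the value of WT2 and DKO2 had 0.366 times the mean of WT1 and WT3 (log2 fold change −1.73 ± 0.24, adjusted p = 0.241 in limma). Rgs13, which dampens chemokine receptor signals, was at 8381, 3777 and 4727 in WT1 to WT3 and 1476 and 1989.8 in DKO1 and DKO2, with ratios of 0.391 and 0.304. Slc15a2, a peptide transporter, was at 97.4, 357 and 231 in WT1 to WT3 and 1243 and 1282 in DKO1 and DKO2, with ratios of 3.48 and 7.82. For the splicing kinase gene Clk4 the ratios were 1.75 and 1.59. These genes had the same direction on both sides of the split. They were picked by their p over these same libraries, which favors genes with such agreement. The agreement is therefore no separate evidence for a genotype difference. Limma passed none of them over all genes (adjusted p = 0.768 for Rgs13, 0.505 for Slc15a2 and 0.823 for Clk4). DESeq2 passed all 4, with adjusted p = 7.23e-07 for Cd36, 0.00131 for Rgs13, 0.000175 for Slc15a2 and 0.043 for Clk4, and edgeR passed none (0.416, 0.856, 0.654 and 0.856 in the same order). Tox2, an HMG-box factor of follicular helper cells, was at 1035, 177 and 226 in WT1 to WT3 and 28.0 and 42.1 in DKO1 and DKO2. DESeq2 passed it too (adjusted p = 9.35e-05), and limma did not (0.823). Tox2 was lower in WT2 than in both other WT libraries, and lower in DKO1 than in DKO2. Which cells its reads came from was not tested.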

How the data were processed

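Sorted cells' RNA was amplified by the NuGEN Ovation V2 chemistry before HiSeq2500 sequencing, per the labels' protocols. Cufflinks 2.0.2, TopHat2 2.0.4 and CASAVA 1.8.2, with the build mm9, are listed in the submitters' processing notes. How reads were counted, whether strand was used and how libraries were scaled is not given in the sources used here. As their processed data, the authors deposited a normalized signal for 38924 genes; in each library at least 99.99% of values were whole multiples of the smallest one, within 0.01, which gave back whole reads. Totals were 34.0 to 57.6 M reads.

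Levels were compared on log2(value + 1) for 13242 genes with a mean of at least 10. Genes were described by the gap between the nearest libraries of both sides; genotype was tested with limma 3.58.1 (R 4.3.3, two-sided, mean-variance trend, Benjamini-Hochberg adjustment, threshold 0.05). EdgeR 4.0.16 and DESeq2 1.42.0 used the recovered reads. On log2(value + 1), folds of weak genes are understated. Names were looked up in RefSeq GRCm38.p6 and GENCODE M21, of another build than the notes name (37669 matched, 1255 not). Genes with a repeated name were passed over when naming genes, which covers 231 repeats and the first entry of each such name.

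The libraries, the 28 lists and the tests were chosen with earlier results of these data known, and the cholesterol list and Bcl6 after the values were seen. The rule for naming took Cd3e, Ccr7, Relb and Nfkb2, up to 10 tested members of the T cell, NK and naive B lists and up to 4 of the others by highest mean, and 15 genes per direction by gap. For genotype it took 5 per direction by smallest p. Other list members printed here were chosen for their known role after their values were seen. A few genes are not reported here by name. Alternatives were the pseudocount, the minimum value, scaling, covariates, the replicate number as a block and leaving out each library. Scripts were tested on simulated data.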

Additional observations from a re-analysis of the deposited data

Results flagged for a closer look

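The median log2 level of the 10 tested plasma cell genes ran in opposite directions within the genotypes. These medians were 10.45, 9.85 and 9.94 in WT1, WT2 and WT3 and 9.77 and 9.64 in DKO1 and DKO2. WT2 lay below both other WT libraries, with a difference of −0.08 from the nearest, and DKO1 lay above DKO2 by 0.14. The median difference of single members, in contrast, was negative in both genotypes, −0.28 within WT and −0.23 within DKO, so the opposite signs depend on comparing medians of levels. The difference between the genotypes was not tested.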

How the results depend on the processing

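The count of genes higher by a 2-fold gap, 233 in the text, was 484 with a minimum mean of 1, 550 with no minimum and 93 with a minimum of 50. The count of lower genes, 31 in the text, was 158, 160 and 4 at these minimums, 19 with a pseudocount of 5 and 75 with quantile scaling. Leaving out 1 library, which can only widen such counts, gave 302 to 625 higher and 51 to 359 lower genes. The higher genes numbered 424, 532 and 302 without WT replicates 1 to 3 and 625 and 476 without DKO replicates 1 and 2, and the lower ones 51, 198, 68, 359 and 77 in the same order. Over members at the minimum mean of 10 alone, the median of the NK list was 2.98, and 0.55 at a minimum of 50. That of the neutrophil list was 5.34, 6.32 with a pseudocount of 0.5, 3.24 with 5, 2.78 at a minimum of 1 and 2.69 with none. The medians of 2 lists changed sign by more than the spread between libraries: regulatory T genes were at −0.28 with a minimum of 50, and immediate early genes ran from −0.55 to 0.055 when 1 library was left out, with 0.055 without DKO replicate 1. Those of marginal zone, light zone, macrophage, stromal and ribosomal protein genes changed sign within that spread under some alternatives. Between genotypes limma called 0 genes at every pseudocount, minimum and scaling tried, 1 with the side of the split and 3 with the T cell level as a covariate, and 0 to 1 when 1 library was left out (1 without WT replicate 2, Gm10800, and 1 without DKO replicate 1, Serinc3). DESeq2 called 29. With the replicate number as a block limma called 36, 14 higher and 22 lower, among them Nfkb2, Cd36, Rgs13, Slc15a2 and Tox2. The block leaves out WT replicate 3, and whether equal numbers pair the libraries could not be decided. Deviations from the group means correlated at 0.005 for replicate 1 and −0.28 for replicate 2. With 2 DKO libraries, whose deviations mirror each other, the latter is only the reverse of the 0.28 of WT2 with DKO1, the split by Cd3e. Depth limits the weakly expressed genes, since a count of 0 in a library allows up to 3 reads.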
